A study of Glycine max with 32 samples.

Results

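The 100 genes described here had lower transcript levels in every e[CO2] library than in any a[CO2] library of WT soybean leaves at V4–V5. They were chosen on CPM, the count of a gene scaled to the same total count in every library. Of 52872 soybean genes in the table, 25574 averaged 2 CPM or more in the WT a[CO2] libraries at V4–V5, and 235 of these (0.919%) had a highest e[CO2] value under the lowest a[CO2] value. The 100 with the lowest log2 ratio of the mean at e[CO2] over the mean at a[CO2], with 0.5 CPM added to both means, were taken. In the other direction, 1566 genes (6.12%) lay wholly above a[CO2] in the same libraries. The balance of these 2 counts depends on the scaling. With libraries scaled by Trimmed Mean of M-values (TMM), 827 genes passed both conditions of the choice in place of 235, and the genes wholly above were not counted.

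Leaf RNA came from 8 groups of 4 libraries each, which combined VPZ-34A or WT with e[CO2] (600 µmol mol−1) or a[CO2] (410 µmol mol−1) and with the R5–R6 stage (R6 in the labels, sampled in September) or V4–V5 (July). Both lines are Glycine max cultivar Maverick, and VPZ-34A, which the labels call TG, is 1 transformation event that overexpresses the Arabidopsis genes AtVDE, AtPsbS and AtZEP from promoters other than those of the native genes, while WT has none of them. Plants grew outdoors in 8 free-air enrichment rings, with rings 3, 5, 6 and 8 at e[CO2] and rings 1, 2, 4 and 7 at a[CO2]. In the field, an e[CO2] ring and an a[CO2] ring formed a block, and the labels do not show which rings belong together. Each ring held both lines and gave 1 library per line and stage from pooled leaf disks, so that the VPZ-34A libraries at V4–V5 came from the same 8 rings as the WT libraries that chose the genes, and differences between rings of unlike CO2 level cannot be told apart from the CO2 level. Values chosen in WT at V4–V5 are given as a description without a test, and the main tests below used only the 24 libraries that the choice did not use. An alternative model of all 32 libraries, named where its values are given, also held the libraries of the choice.

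The libraries held 16091207 to 63132399 counts (median 20437366), so that 3 counts corresponded to at most 0.186 CPM. The 3 transgenes had at least 58.4, 803 and 1019 CPM in every VPZ-34A library and at most 0.0822, 0.994 and 0.29 CPM in any WT library, which fits the labels. The median correlation of a library with the others of its group was 0.939 to 0.984, and the lowest belonged to the VPZ-34A library at a[CO2] from ring 7 at R5–R6, so that counts at that stage are also given without it. Tissue markers were not checked, because the gene identifiers of the table were not paired with gene names here beyond the 842 genes that the supplementary annotation of the study lists.

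More CO2 around a leaf raises the rate at which Rubisco fixes carbon and lowers photorespiration, and long growth at e[CO2] is known to alter sugar supply, nitrogen status and transcript levels of photosynthetic genes in crop leaves. The transgenes of VPZ-34A act in the dissipation of excess light as heat: violaxanthin de-epoxidase and zeaxanthin epoxidase interconvert the pigments of the xanthophyll cycle, and PsbS senses the acidity of the thylakoid lumen. Of the 100 genes, 8 appear in the annotation of the study, which was itself selected on these samples, and 5 carry a name or a product. Glyma.01G192600 is listed as LBD38 (LOB domain-containing protein 38), which in Arabidopsis represses nitrate-responsive genes and anthocyanin synthesis. Glyma.11G065000 is listed as GBF1 (G-box binding factor 1), a bZIP transcription factor that in Arabidopsis binds promoters of light-responsive genes. Glyma.10G243800 is listed as ELIP1, an early light-induced protein of the chlorophyll a/b-binding family, which accumulates in thylakoids under excess light. Glyma.12G134200 is listed as a dynein light chain type 1 family protein and Glyma.13G245600 as a protein of unknown function with a DUF761 domain. Glyma.13G284800 and Glyma.05G143000 had an Arabidopsis identifier without a name, Glyma.08G024500 had neither, and the other 92 genes were without an entry.

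In WT at V4–V5 the log2 ratios of the 100 genes ran between -1.75 and -0.37 with a median of -0.52, and 4 genes had a ratio of -1 or lower. In whole leaf RNA, fewer cells of a type and less RNA per cell cannot be told apart. The separation between the CO2 levels was narrow for many genes: the lowest a[CO2] library was within 5% of the highest e[CO2] library in 34 genes, and the widest gap was 1.53-fold. The last gene taken, Glyma.06G055900, averaged 29.1 CPM at e[CO2] and 37.7 CPM at a[CO2] (log2 ratio -0.37), and the first gene left out, Glyma.03G114600, averaged 967 and 1239 CPM (log2 ratio -0.36). The mean level at a[CO2] spanned 2.06 to 5196 CPM (median 24.8 CPM). Together, the 100 genes took 1.44% of the reads at e[CO2] and 1.98% at a[CO2].

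The largest ratio belonged to Glyma.13G284800, which had 1.53, 1.13, 0.747 and 3.37 CPM in WT at e[CO2] (rings 3, 5, 6 and 8), against 6.83, 5.74, 4.62 and 10.3 CPM at a[CO2] (rings 1, 2, 4 and 7). Glyma.13G245600 followed with 4.59, 8.48, 4.38 and 4.77 CPM at e[CO2], against 12.4, 9.66, 13.9 and 14.2 CPM at a[CO2], so that the e[CO2] library of ring 5 came close to the a[CO2] library of ring 2. The transcript listed as LBD38 had 2.67, 2.13, 3.84 and 3.84 CPM at e[CO2], against 9.52, 5.05, 7.29 and 4.59 CPM at a[CO2]. Among the 10 genes with the lowest ratios, 6 were in the annotation of the study. The remaining ones of these 10 were Glyma.08G024500 (mean 0.864 CPM at e[CO2] and 2.24 CPM at a[CO2]), Glyma.12G134200 (4.02 and 8.58 CPM), Glyma.05G143000 (5.2 and 10.9 CPM), Glyma.11G058600 (0.806 and 2.1 CPM), Glyma.13G030300 (12.8 and 24.5 CPM), Glyma.02G019400 (8.28 and 15.9 CPM) and Glyma.08G107300 (8.79 and 16.6 CPM). None of these 10 averaged above 24.5 CPM in WT at V4–V5. The ratio was lower in genes of lower level: its median was -0.62 in the 28 genes under 10 CPM at a[CO2], -0.54 in the 47 genes between 10 and 100 CPM and -0.46 in the 25 genes of 100 CPM or more.

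The question for the libraries that were not used is whether these genes were lower at e[CO2] in the transgenic line as well, and whether they were at the later stage. In VPZ-34A at V4–V5, the mean of 96 of the 100 genes was lower at e[CO2], where 39.5% of the 25779 genes of 2 CPM or more at a[CO2] were. Of the 100, 13 lay wholly below a[CO2], against 0.78% of all genes, and 0 lay wholly above, against 2.19%. The median log2 ratio was -0.31 for the 100 genes and 0.05 for all genes. The decrease was smaller than in WT in 83 genes, which describes genes that were picked for a large ratio in WT and was not tested. With TMM scaling, the median of all genes in WT at V4–V5 was -0.02 in place of 0.09, a shift of over 0.1. With the same scaling, 97 of the 100 were lower in VPZ-34A at V4–V5 and 18 lay wholly below, while 52.5% of all genes were lower and 1.3% lay wholly below.

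**Figure D1:**
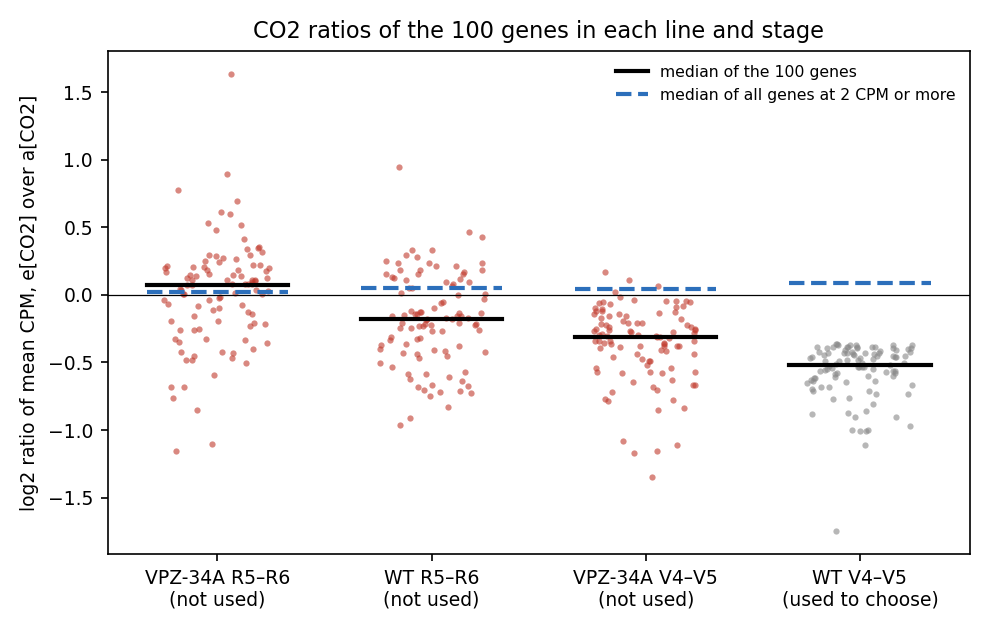
Log2 ratio of mean CPM at e[CO2] over mean CPM at a[CO2] for the 100 genes (points), in each line and stage, with the median of the 100 genes (solid line) and of all genes of 2 CPM or more (dashed line). The medians of the 100 genes are 0.07 in VPZ-34A and -0.17 in WT at R5–R6, and -0.31 in VPZ-34A and -0.52 in WT at V4–V5, where the WT values (grey) chose the genes.

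The 4 e[CO2] libraries of VPZ-34A at V4–V5 did not all stand apart. For each gene, log2(CPM + 0.5) was taken relative to its mean over the a[CO2] libraries of that line and stage. The median over the 100 genes was -0.32, -0.50, -0.07 and -0.43 in the e[CO2] libraries of rings 3, 5, 6 and 8, against 0.15, -0.09, 0.11 and -0.17 in the a[CO2] libraries of rings 1, 2, 4 and 7. The library of ring 6 thus overlapped the a[CO2] libraries of rings 2 and 7, while the other e[CO2] libraries lay below all a[CO2] libraries. It had 29 genes under their lowest a[CO2] value, where the libraries of rings 3, 5 and 8 had 53, 66 and 54. Without ring 6, 28 genes lay wholly below a[CO2], and 1.52% of all genes did. Leaving out the a[CO2] library of ring 1 lowered the number of genes with a lower mean to 79, with 42.7% of all genes lower.

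**Figure D2:**
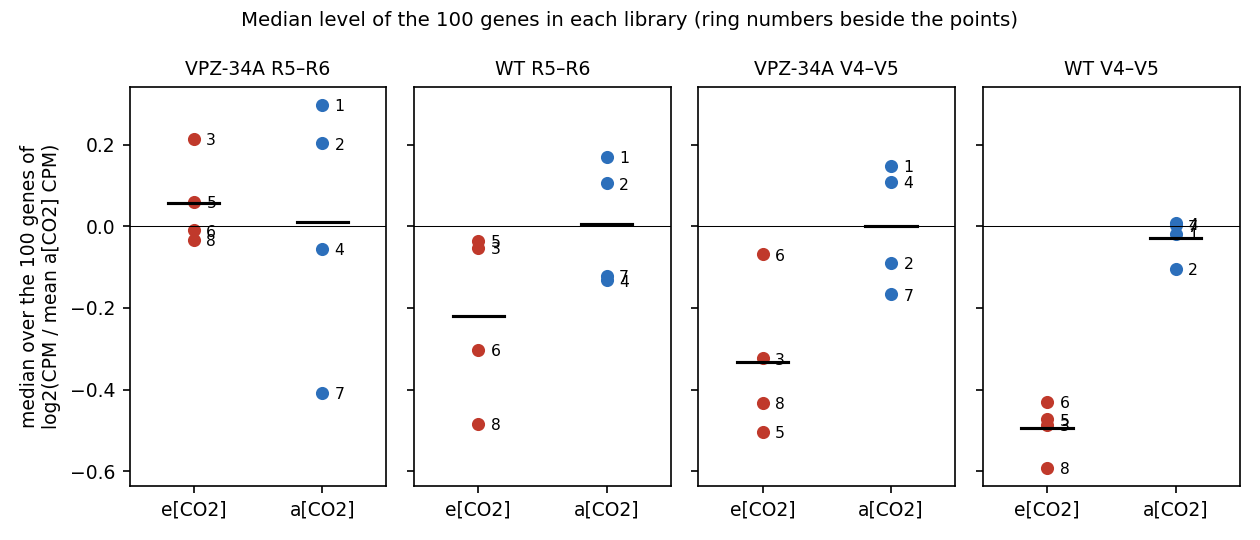
Median over the 100 genes of log2(CPM / mean CPM at a[CO2]) in each library, by line, stage and CO2 level, with ring numbers beside the points and the mean of 4 libraries as a bar. At V4–V5 the VPZ-34A library of ring 6 lies at -0.07, among the a[CO2] libraries, and at R5–R6 the VPZ-34A a[CO2] library of ring 7 lies at -0.41.

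In the quasi-likelihood test of edgeR over 32419 genes, 0 of the 100 genes passed an adjusted p of 0.05 for the CO2 effect in VPZ-34A at V4–V5, and 1 of all genes tested was called lower (0.00308%). At an unadjusted p under 0.05, 33 of the 100 were lower and 0 higher, against 2.38% and 2.8% of all genes. The median log2FC of the 100 was -0.39 (middle 50 genes between -0.59 and -0.23), with a median standard error of 0.24, and the median of all genes was -0.01. DESeq2 called 7 of the 100 lower and 0.102% of all genes, and limma-voom called 0. By rank in WT, the 4 successive sets of 25 genes had 12, 9, 4 and 8 with an unadjusted p under 0.05.

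The lowest adjusted p belonged to Glyma.12G112000, a gene without an entry in the annotation. It had 5.56, 5.38, 6.97 and 5 CPM in VPZ-34A at e[CO2] (rings 3, 5, 6 and 8), against 9.87, 10.6, 11.9 and 10.6 CPM at a[CO2] (rings 1, 2, 4 and 7), and the groups did not overlap. Its log2FC was -0.97 ± 0.15 (SE, n = 4 per group) with an adjusted p of 0.169 in edgeR and 1.35e-05 in DESeq2.

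Glyma.13G245600, the DUF761 protein, had 2.96, 2.82, 4.87 and 3.75 CPM at e[CO2], against 9.76, 7.95, 10.5 and 6.69 CPM at a[CO2]. All e[CO2] libraries were lower, the one of ring 6 being the highest of them, and the log2FC was -1.34 ± 0.21 (SE) with an adjusted p of 0.177 in edgeR and 2.59e-05 in DESeq2. Glyma.08G024500 had 1.12, 0.753, 0.729 and 0.721 CPM at e[CO2], against 2.24, 1.5, 2.57 and 3.18 CPM at a[CO2]. Its groups were also apart, at a log2FC of -1.60 ± 0.31 (SE) with an adjusted p of 0.394 in edgeR and 0.00415 in DESeq2.

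LBD38 (Glyma.01G192600) had 2.08, 2.42, 4.69 and 3.03 CPM in VPZ-34A at e[CO2], against 10.1, 7.95, 5.14 and 6.5 CPM at a[CO2]. The groups did not overlap, with the e[CO2] library of ring 6 just under the a[CO2] library of ring 4. The log2FC was -1.36 ± 0.29 (SE), and the adjusted p was 0.522 in edgeR and 0.00672 in DESeq2. Glyma.05G233700 had a narrower spread, with 39.4, 37.6, 44.6 and 40.8 CPM at e[CO2], against 57.8, 59.6, 55.5 and 63.9 CPM at a[CO2]. At a log2FC of -0.61 ± 0.13 (SE), its adjusted p was 0.522 in edgeR and 0.00913 in DESeq2. For these 5 genes, the exact two-sided permutation test of 4 against 4 libraries gave p = 0.029 each, the smallest p that 70 regroupings allow. The 5 were picked by their edgeR p in these same libraries, and their groups did not overlap. The permutation p was thus fixed by the pick and is no separate support.

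Of the further genes with low p, Glyma.16G044700 averaged 5.92 ± 0.764 CPM at e[CO2] and 9.1 ± 0.76 CPM at a[CO2] (SD, n = 4 each; adjusted p = 0.558 in edgeR and 0.0499 in DESeq2). Glyma.06G096100 averaged 13.9 ± 2.25 CPM at e[CO2] and 20.9 ± 4.52 CPM at a[CO2] (adjusted p = 0.577 in edgeR), and all its e[CO2] libraries were lower too. Glyma.13G284800, first by ratio in WT, had 1.29, 1.51, 0.637 and 3.27 CPM in VPZ-34A at e[CO2], against 4.26, 7.28, 2.67 and 5.95 CPM at a[CO2]. Its groups overlapped through the e[CO2] library of ring 8 and the a[CO2] library of ring 4, and the log2FC was -1.68 ± 0.45 (SE) with an adjusted p of 0.604 in edgeR and 0.0499 in DESeq2.

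**Figure D3:**
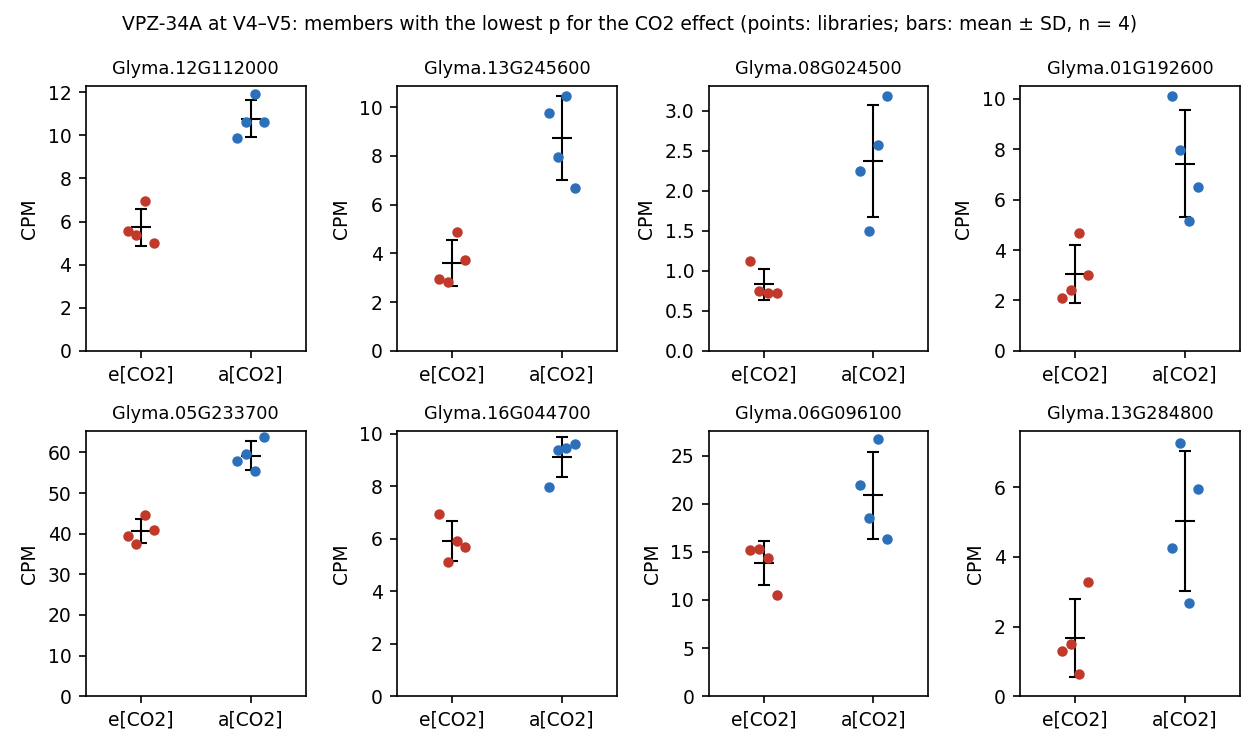
CPM of the 8 genes with the lowest p for the CO2 effect in VPZ-34A at V4–V5, in the 4 libraries at e[CO2] (left) and the 4 at a[CO2] (right) of each panel, with the mean ± SD. In 7 panels the groups do not overlap, and in that of Glyma.13G284800 1 e[CO2] library of 3.27 CPM lies above the lowest a[CO2] library of 2.67 CPM.

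At the other end, the mean of 4 genes was higher at e[CO2] in VPZ-34A at V4–V5. Glyma.18G276800 had 65.3, 39.1, 26.8 and 47.2 CPM at e[CO2], against 43.3, 41, 42.2 and 31.8 CPM at a[CO2] (log2FC 0.13 ± 0.25 SE, edgeR adjusted p = 0.99). Glyma.09G087700 had 222, 153, 410 and 202 CPM at e[CO2], against 373, 189, 210 and 141 CPM at a[CO2]. Glyma.15G180900 averaged 98 ± 19.9 CPM at e[CO2] and 93.5 ± 24.7 CPM at a[CO2] (SD, n = 4 each). In all 3 the CO2 levels overlapped, and the sign of the log2FC depended on single rings. ELIP1, the fourth, is described with its values at both stages below. Glyma.02G019400, which was ninth by ratio in WT, had 9.98, 10.3, 14.3 and 5.65 CPM at e[CO2], against 15.6, 8.15, 14 and 3.83 CPM at a[CO2], and its log2FC was -0.08 ± 0.38 (SE, edgeR adjusted p = 0.997).

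At R5–R6 the 100 genes showed less of a common direction. In VPZ-34A, 41 had a lower mean at e[CO2], where 46.8% of all genes did, 2 lay wholly below (1.99% of all genes) and 1 wholly above (3.88% of all genes). In WT, 67 had a lower mean (39.4% of all genes), 4 lay wholly below (0.579%) and 1 wholly above (1.23%). With TMM scaling, 50 were lower in VPZ-34A and 74 in WT, beside 56.4% and 56.8% of all genes. The median log2 ratio was 0.07 in VPZ-34A and -0.17 in WT. Of the 100 genes, 35 were lower in mean at e[CO2] in VPZ-34A at V4–V5 and in both lines at R5–R6, 29 were lower in the first and in WT at R5–R6 but not in VPZ-34A at R5–R6, and 26 were lower in the first alone. Shares of all genes with these joint directions were not counted, and both lines came from the same rings.

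The a[CO2] library of ring 7 bears on the VPZ-34A values at R5–R6. The median over the 100 genes, relative to the mean log2 value at a[CO2] as above, was 0.21, 0.06, -0.01 and -0.03 in the VPZ-34A e[CO2] libraries of rings 3, 5, 6 and 8, against 0.30, 0.20, -0.06 and -0.41 in the a[CO2] libraries of rings 1, 2, 4 and 7. Without ring 7, 54 genes had a lower mean and 10 lay wholly below a[CO2], and the median ratio was -0.02, while 44.9% of all genes were lower and 6.08% lay wholly below. In WT at R5–R6 the same medians were -0.05, -0.04, -0.30 and -0.48 at e[CO2], against 0.17, 0.11, -0.13 and -0.12 at a[CO2]. The e[CO2] libraries of rings 6 and 8 were thus under all a[CO2] libraries, and those of rings 3 and 5 were not. Leaving out ring 3, 4, 5, 7 or 8 gave 8, 7, 7, 9 or 7 genes wholly below in WT in place of 4, beside 1.87%, 0.959%, 1.05%, 2% or 2.05% of all genes.

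The edgeR test over 31956 genes called 0 of the 100 for the CO2 effect at R5–R6 in VPZ-34A, in WT and over both lines, and 0% of all genes in each. The edgeR and DESeq2 fits over both lines, here and below, take the libraries of both lines of a ring as independent. Their p-values and standard errors for the CO2 effect can therefore be too small. At an unadjusted p under 0.05, 5 of the 100 were lower and 2 higher in VPZ-34A (6.22% and 5.1% of all genes), 9 were lower and 1 higher in WT (2.22% and 2.47%), and 12 were lower and 3 higher over both lines (6.98% and 6.54%). The count of 5 in VPZ-34A became 3 without ring 1 (6.86% of all genes) or ring 2 (6.16%), 8 without ring 3 (6.26%) and 15 without ring 7 (6.25%). The count of 9 in WT became 4 without ring 2 (2.06% of all genes) or ring 6 (1.11%), 14 without ring 3 (3.43%) or ring 5 (1.77%) and 16 without ring 7 (4.57%). DESeq2 called 1 lower in VPZ-34A, 0 in WT, and 2 lower and 1 higher over both lines, and limma-voom called 0 in each. Of all genes, DESeq2 called 0.235% lower in VPZ-34A, 0.00626% lower in WT, and 0.817% lower and 1.12% higher over both lines. At an unadjusted p under 0.05, Glyma.05G143000, Glyma.06G095700 and Glyma.12G112000 were among the 33 in VPZ-34A at V4–V5 and the 5 at R5–R6. They made up 9.09% of the 33, beside 6.22% of all genes lower in VPZ-34A at R5–R6. They also made up 60% of the 5, beside 33 of the 100 and 2.38% of all genes lower at V4–V5. Glyma.05G143000 was the 1 gene of the 33 also among the 9 in WT at R5–R6. It made up 3.03% of the 33, beside 9 of the 100 and 2.22% of all genes lower in WT at R5–R6. It made up 11.1% of the 9, beside the same 33 of the 100 lower at V4–V5.

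Glyma.05G143000 was lower in mean at e[CO2] in both lines and at both stages. At R5–R6 it had 22.1, 11.2, 27.2 and 27 CPM in VPZ-34A at e[CO2], against 23, 52.8, 54.5 and 29.2 CPM at a[CO2], and 35, 25, 20.9 and 26.5 CPM in WT at e[CO2], against 42.6, 39.6, 46.4 and 31.7 CPM at a[CO2]. The groups overlapped in each line through 1 library per CO2 level or more. Over both lines the log2FC was -0.78 ± 0.20 (SE), with an adjusted p of 0.146 in edgeR and 0.0233 in DESeq2. At V4–V5 it had 4.17, 4.43, 9.97 and 4.61 CPM in VPZ-34A at e[CO2], against 13.1, 6.11, 14.9 and 8.76 CPM at a[CO2], where the library of ring 6 again lay among the a[CO2] libraries.

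Glyma.04G170100 had the lowest adjusted p of the 100 at R5–R6. In VPZ-34A it had 11.2, 9.72, 10.7 and 11.6 CPM at e[CO2], against 16.7, 19.2, 17.9 and 16.6 CPM at a[CO2], with no overlap. In WT it had 17.5, 16, 13.1 and 17.8 CPM at e[CO2], against 17.6, 16.9, 17.3 and 25.1 CPM at a[CO2], and these overlapped. The log2FC was -0.77 ± 0.14 (SE) in VPZ-34A (adjusted p = 0.291 in edgeR and 0.00116 in DESeq2) and -0.31 ± 0.14 in WT (adjusted p = 1 in edgeR), and the interaction of line and CO2 was -0.46 ± 0.19 (adjusted p = 1). Over both lines it was -0.54 ± 0.10, with an adjusted p of 0.112 in the edgeR fit of 16 libraries and 0.039 without ring 3. An edgeR model of all 32 libraries gave an adjusted p of 0.0405. That model also held the libraries that chose the genes, so that its estimate of the spread is not independent of the choice.

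Glyma.13G030300 went the other way at the later stage. It had 45.5, 43.6, 58.6 and 39.1 CPM in VPZ-34A at e[CO2], against 34.9, 30.6, 30.4 and 32.3 CPM at a[CO2], and 45.5, 46.2, 69.2 and 38.2 CPM in WT at e[CO2], against 28.5, 16.2, 25.2 and 32.3 CPM at a[CO2]. All e[CO2] libraries were above all a[CO2] libraries in both lines, while in WT at V4–V5 all e[CO2] libraries were below. Over both lines at R5–R6 the log2FC was 0.69 ± 0.14 (SE), with an adjusted p of 0.113 in edgeR and 0.0032 in DESeq2. In VPZ-34A at V4–V5 it had 3.29, 7.75, 20.4 and 16.6 CPM at e[CO2], against 37.8, 9.31, 47.8 and 8.94 CPM at a[CO2]. The a[CO2] libraries of rings 1 and 4 were high and those of rings 2 and 7 low, so that the groups overlapped (log2FC -1.15 ± 0.61 SE, edgeR adjusted p = 0.989). Another of the 100, Glyma.13G030900, lies 7 rows further along the same chromosome in the table.

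Glyma.20G002000 had 42, 32.4, 30.1 and 34.2 CPM in WT at e[CO2], against 61.2, 49.7, 66.2 and 44 CPM at a[CO2], and was 1 of the 4 genes wholly below a[CO2] in WT at R5–R6. Its log2FC was -0.27 ± 0.21 (SE) in VPZ-34A and -0.73 ± 0.21 in WT (edgeR adjusted p = 1, unadjusted p = 0.00331). Without ring 7, 4 genes were called lower over both lines by edgeR and 1 higher, beside 1.55% of all genes: Glyma.20G002000 (log2FC -0.64 ± 0.11), Glyma.10G180000 (-0.67 ± 0.14), Glyma.04G170100 (-0.48 ± 0.09) and Glyma.19G027400 (-0.47 ± 0.11) were lower, and Glyma.13G030300 (0.75 ± 0.16) was higher. Glyma.10G180000 and Glyma.19G027400 are named after their values were seen. Glyma.06G095700 was the single gene of the 100 wholly below a[CO2] in VPZ-34A at both stages. It had 1.69, 1.11, 0.803 and 1.26 CPM at e[CO2], against 2.56, 1.98, 3.31 and 1.78 CPM at a[CO2], at R5–R6 (log2FC -1.04 ± 0.35 SE, edgeR adjusted p = 0.338). It was 1 of the 13 wholly below at V4–V5, beside 1.99% of all genes wholly below at R5–R6. The share of all genes wholly below at both stages was not counted.

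**Figure D4:**
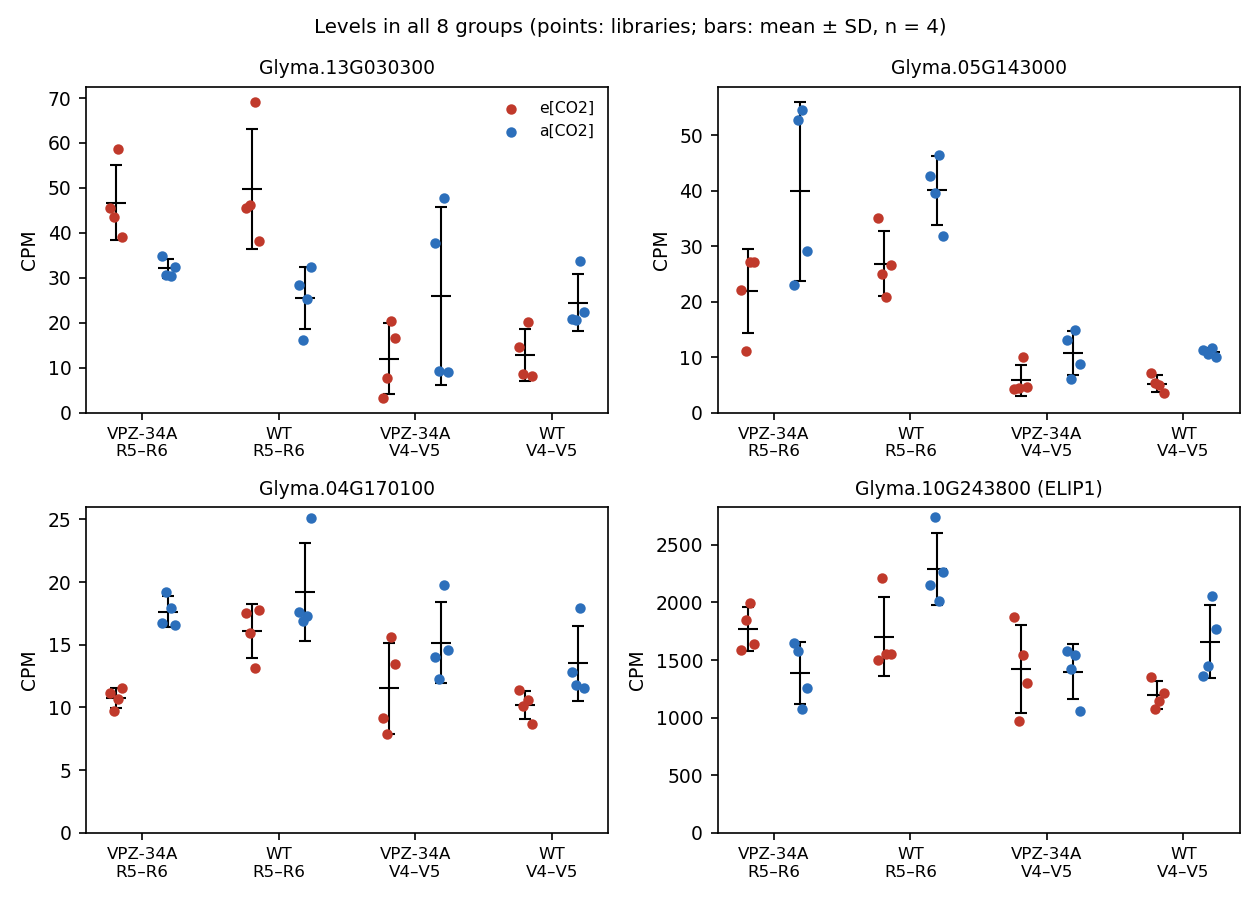
CPM of Glyma.13G030300, Glyma.05G143000, Glyma.04G170100 and Glyma.10G243800 (ELIP1) in the 4 libraries of each of the 8 groups, with the mean ± SD, e[CO2] left of a[CO2] in each pair. Glyma.13G030300 averages 46.7 CPM at e[CO2] and 32.1 CPM at a[CO2] in VPZ-34A at R5–R6, and 12.8 and 24.5 CPM in WT at V4–V5.

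The direction of the CO2 effect at R5–R6 was compared between the lines as an interaction. The median log2FC of the interaction, VPZ-34A minus WT, was 0.23 over the 100 genes and -0.02 over all genes. edgeR called 0 of the 100 and 0% of all genes, and DESeq2 and limma-voom called 0 of the 100. At an unadjusted p under 0.05, 1 was lower and 2 were higher, beside 1.3% and 1.07% of all genes. ELIP1 had the lowest unadjusted p, 0.0184. It had 1588, 1850, 1997 and 1635 CPM in VPZ-34A at e[CO2], against 1647, 1577, 1077 and 1255 CPM at a[CO2], and 1502, 2213, 1550 and 1549 CPM in WT at e[CO2], against 2149, 2738, 2010 and 2263 CPM at a[CO2]. The CO2 levels overlapped in both lines, with a log2FC of 0.28 ± 0.21 (SE) in VPZ-34A, -0.49 ± 0.21 in WT and 0.77 ± 0.29 for the interaction (edgeR adjusted p = 1).

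At V4–V5, ELIP1 had 1871, 971, 1543 and 1300 CPM in VPZ-34A at e[CO2], against 1578, 1426, 1544 and 1053 CPM at a[CO2]. The groups overlapped throughout, and the log2FC was -0.02 ± 0.23 (SE, edgeR adjusted p = 0.998). In WT at V4–V5 it averaged 1197 CPM at e[CO2] and 1658 CPM at a[CO2]. Its counts were not whole numbers in 71.9% of libraries, so that reads shared with other loci entered them. Glyma.08G038300 and Glyma.18G039400, the next by interaction p apart from Glyma.04G170100, had a log2FC of 0.83 ± 0.34 and 0.99 ± 0.47 (adjusted p = 1 for both). Glyma.18G039400 averaged 3.19 ± 0.492 CPM in VPZ-34A at e[CO2] and 2.91 ± 0.59 CPM at a[CO2], and 2.48 ± 0.642 and 4.51 ± 1.89 CPM in WT (SD, n = 4 each).

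The line effect at R5–R6, VPZ-34A over WT across both CO2 levels, had a median log2FC of 0.13 in the 100 genes and 0.00 in all genes. edgeR called 0 of the 100, and 2 of all genes lower (0.00626%) and 22 higher (0.0688%). DESeq2, which called 0.0907% of all genes lower, and limma-voom also called 0. At an unadjusted p under 0.05, 12 were higher in VPZ-34A and 1 lower, beside 3.74% and 3.79% of all genes. Glyma.09G120200 averaged 131 ± 16.9 CPM at e[CO2] and 114 ± 13.5 CPM at a[CO2] in VPZ-34A, against 75.5 ± 22.6 CPM and 83.1 ± 29.8 CPM in WT (SD, n = 4 each), at a log2FC of 0.65 ± 0.18 (SE, adjusted p = 0.483). Glyma.06G162600 (log2FC 0.48 ± 0.14, adjusted p = 0.49) and Glyma.20G065900 (0.47 ± 0.18, adjusted p = 0.607) were higher in mean, and Glyma.04G170100 was lower (-0.33 ± 0.10, adjusted p = 0.524).

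Many of the 100 genes differed between the stages, as did many of all genes. In VPZ-34A, 43 of the 100 genes fell at R5–R6 relative to V4–V5 and 26 rose at an adjusted p under 0.05 in edgeR, beside 32.4% and 31.6% of 32919 genes tested. The filters differ: the 100 needed 2 CPM or more at V4–V5 in WT, and all genes only 0.5 CPM over both stages in VPZ-34A. Genes low at V4–V5 and high at R5–R6 could thus enter all genes but not the 100. More falls and fewer rises among the 100 can come in part from this filter. DESeq2 gave the same 2 counts, with 32.8% of all genes lower, and limma-voom called 66 in either direction, beside 63.8% of all genes. Of the 23 genes at 100 CPM or more in VPZ-34A at a[CO2] and V4–V5, 18 fell and 2 rose, beside 56.7% and 14.1% of all genes of that level. Of the 29 genes under 10 CPM, 8 fell and 10 rose, beside 29.7% and 33.8%. Decreases of 2 or more on the log2 scale were called in 16 of the 100 (7.9% of all genes) and of 1 or more in 31 (17.1%), and increases of 1 or more were called in 9 (10.7%).

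Glyma.02G305400 fell most. It had 37.8, 23, 29.1 and 25.2 CPM at e[CO2] and 29.1, 18.2, 12.7 and 10.4 CPM at a[CO2] in VPZ-34A at R5–R6, against 624, 576, 866 and 510 CPM at e[CO2] and 1474, 553, 710 and 460 CPM at a[CO2] at V4–V5. No library of the later stage came near one of the earlier stage, and the log2FC was -5.29 ± 0.31 (SE, edgeR adjusted p = 8.33e-10). Glyma.03G125000, which had the lowest adjusted p (5.06e-10), spanned 1.64 to 3.81 CPM (median 2.44) at R5–R6, against 13.8 to 56 CPM (median 33.6) at V4–V5 over 8 VPZ-34A libraries each (log2FC -4.00 ± 0.22). Glyma.08G107300 spanned 0.539 to 2.38 CPM (median 1.23) at R5–R6, against 10.2 to 18.8 CPM (median 13.9) at V4–V5 (log2FC -3.65 ± 0.22, adjusted p = 1.06e-09). Glyma.18G039400 likewise fell by 2.48 on the log2 scale (SE 0.16, adjusted p = 1.77e-09). In 22 of the 100 genes all 8 VPZ-34A libraries of R5–R6 were below all 8 of V4–V5, and in 6 all were above, beside 12.1% and 21.6% of all genes tested. The unlike filters given above bear on these shares too.

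Among the genes that rose at R5–R6 were 3 with a product or an Arabidopsis identifier. Glyma.13G245600, the DUF761 protein, had a log2FC of 0.77 ± 0.27 (SE, edgeR adjusted p = 0.021). GBF1 (Glyma.11G065000), described because it is annotated and after its values were seen, averaged 22.2 ± 15.3 CPM at R5–R6 and 4.98 ± 1.68 CPM at V4–V5 in VPZ-34A (SD, n = 8 each, log2FC 1.78 ± 0.37 SE, edgeR adjusted p = 0.000558). At R5–R6 it had 29.1, 14.8, 5.17 and 5.42 CPM in VPZ-34A at e[CO2], against 40.1, 36, 38.6 and 8.76 CPM at a[CO2], so that the a[CO2] library of ring 7 lay among the e[CO2] libraries (log2FC for CO2 -1.23 ± 0.61 SE, edgeR adjusted p = 0.466). Glyma.05G143000 averaged 30.9 ± 15.1 CPM at R5–R6 and 8.26 ± 4.15 CPM at V4–V5 (log2FC 1.61 ± 0.25 SE, adjusted p = 3.75e-05). Glyma.06G125600, with no entry in the annotation, had the largest increase, at 11.3 ± 4.13 CPM at R5–R6 and 2.48 ± 1.41 CPM at V4–V5 (log2FC 1.94 ± 0.24 SE, adjusted p = 3.68e-06). ELIP1 (log2FC -0.14 ± 0.16, adjusted p = 0.447) and LBD38 (0.45 ± 0.25, adjusted p = 0.126) were not called between the stages.

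**Figure D5:**
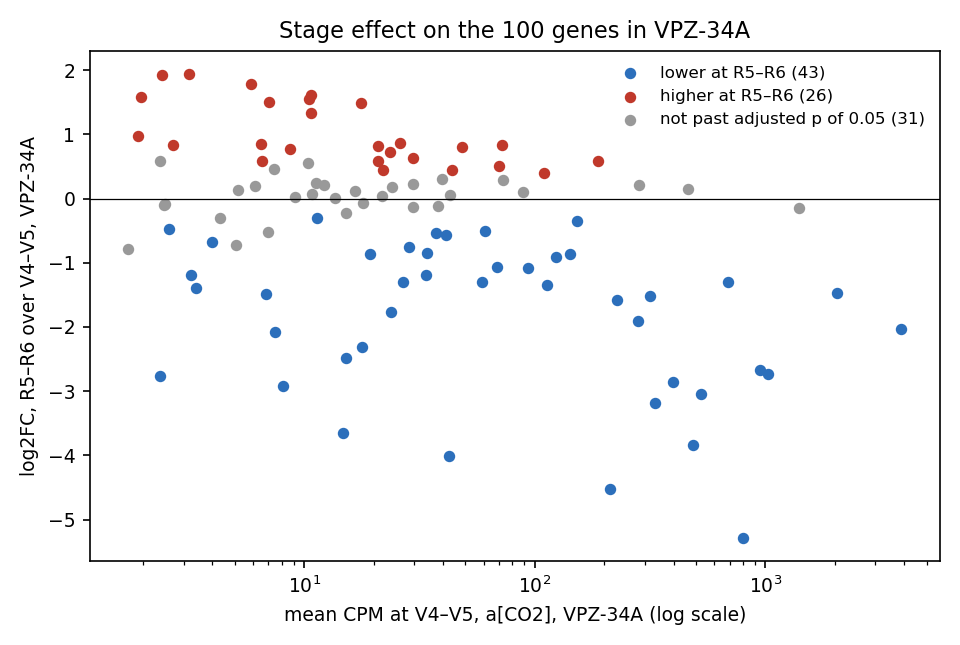
Stage effect in VPZ-34A (log2FC, R5–R6 over V4–V5) of each of the 100 genes against its mean CPM at V4–V5 and a[CO2] in VPZ-34A (log axis), with genes called lower (43), higher (26) and neither (31) at an adjusted p of 0.05. The genes of the highest level lie mostly below 0, down to -5.29 for Glyma.02G305400.

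Whether the CO2 effect in VPZ-34A differed between the stages was tested as an interaction. Its median, R5–R6 minus V4–V5, was 0.34 over the 100 genes and -0.02 over all genes, and 82 of the 100 were positive, beside 46.8% of all genes. edgeR called 0 of the 100 and 0% of all genes, and DESeq2 and limma-voom called 0 of the 100, DESeq2 with 0.0122% of all genes lower. At an unadjusted p under 0.05, 13 were higher and 0 lower, beside 2.68% and 1.72% of all genes. The lowest p belonged to Glyma.11G146500, which at R5–R6 had 0.237, 0.387, 5.69 and 4.07 CPM at e[CO2], against 0.434, 0.454, 0.428 and 0.664 CPM at a[CO2] in VPZ-34A. The e[CO2] libraries of rings 6 and 8 were above all a[CO2] libraries and those of rings 3 and 5 below all of them, and the interaction was 2.75 ± 0.90 (SE, adjusted p = 1). In the e[CO2] libraries of rings 3 and 5, 3 counts corresponded to 0.158 and 0.145 CPM. Their place below a[CO2] thus rests on few reads near the floor. At V4–V5 it averaged 6.12 ± 1.26 CPM at e[CO2] and 8.13 ± 2.94 CPM at a[CO2] (SD, n = 4 each). Glyma.07G106600 (0.61 ± 0.20), Glyma.06G125600 (1.41 ± 0.48) and LBD38 (1.44 ± 0.51) came next, each with an adjusted p of 1. LBD38 averaged 8.36 ± 3.01 CPM at e[CO2] and 7.71 ± 3.31 CPM at a[CO2] in VPZ-34A at R5–R6, against 3.06 ± 1.16 and 7.42 ± 2.12 CPM at V4–V5.

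In properties that the choice did not use, the 100 genes were spread over 20 chromosomes, with 11 each on chromosomes 6 and 8. These were 0.736% and 0.607% of the genes of 2 CPM or more there, against 100 of 25574 over all chromosomes. Glyma.13G030300 with Glyma.13G030900, and Glyma.06G095700 with Glyma.06G096100, lay 7 and 4 rows apart in the table. In 33 genes the count was not a whole number in 16 or more of the 32 libraries, and in 13 it was whole in all. The share over all genes was not counted. Of 17 word lists on leaf functions, applied to the annotation of the study, 2 held a gene of the 100: ELIP1 was 1 of 4 genes listed under light harvesting and photosystems, and LBD38 was 1 of 3 listed under nitrate uptake and assimilation. The product name of LBD38 was itself among the words of the nitrate list, so that its place there is no separate result. The other 3 light-harvesting genes and 2 nitrate genes were outside the 100, and flavonoid synthesis, defence, heat shock, auxin and the further lists held 0 of the 100. These counts of 0 do not show that such functions are absent, because only 5 of the 100 genes carry a name or product. GBF1 matched no word of the transcription factor list, and the Calvin cycle and chlorophyll synthesis lists held 0 annotated genes.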

How the data were processed

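The authors extracted RNA from leaves, made stranded polyA libraries, trimmed reads (Trimmomatic 0.39), aligned them (STAR 2.7.10a) to genome build Wm82.a4.v1 plus 3 transgenes, and counted reads on genes (featureCounts of Subread 2.0.4). The deposited values are expected counts, since reads of several loci were shared as fractions, and they carry no normalisation and no ComBat-seq correction, which the study applied later together with TMM and limma. 0 columns belonged to no mapped sample.

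Groups and rings were taken from the labels. CPM used column totals. For tests the estimated counts were rounded, genes of a mean of 0.5 CPM or more over the libraries of a fit were kept (all 100 genes passed), libraries were scaled by TMM, and edgeR 4.0.16 (R 4.3.3) was used with the quasi-likelihood test and Benjamini-Hochberg adjustment over all genes tested. Fits held 8 libraries for VPZ-34A at V4–V5, 16 for R5–R6 and 16 for the stage comparison in VPZ-34A. Standard errors were derived from the log2FC and the test statistic. P-values measure the spread between ring samples, and floors of 3 counts cover counting error only. Over both lines at R5–R6, edgeR and DESeq2 took the libraries of both lines of a ring as independent, although CO2 was set per ring. The consensus correlation within a ring was 0.329, so that these p-values and standard errors can be too small for the CO2 effect. The limma-voom fit with the ring as a random block takes this correlation into account. The scripts were tested on simulated data.

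Ring numbers in the labels mark a shared plot. Correlations of same-numbered libraries, after their group means were subtracted, had a median of 0.323 between the lines at R5–R6 (6 of 8 rings above 0.1), 0.197 between the lines at V4–V5 (6 of 8 above 0.1), where the WT libraries chose the genes, and 0.0566 between the stages in VPZ-34A (2 of 8 above 0.1), and fits with the ring as a block are among the alternatives. The others were DESeq2 1.42.0, limma-voom (limma 3.58.1), other filters, RLE in place of TMM, an added log2FC threshold of 1, models of 24 or 32 libraries, each ring left out, and changes to the choice of the genes. TMM scaling and left-out libraries for counts over the same 100 genes were added after seeing the data. The genes, lists, tests and names were chosen with earlier results of these data known. Named were the 10 genes with the lowest ratio in WT at V4–V5, up to 8 with the lowest p for CO2 in VPZ-34A at V4–V5, up to 4 in each other comparison, the 3 highest log2FC in VPZ-34A at V4–V5, and those on either side of the threshold of the choice. Word lists and names used the annotation columns of the study alone. Sequences were not used here.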

Additional observations from a re-analysis of the deposited data

Results flagged for a closer look

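A library far from the other 3 of its group, by Dixon's ratio at the 95% critical value, was found in 17 of 264 groups of the 33 named genes (6.44%), where chance gives about 1 in 20. At R5–R6 in VPZ-34A these were Glyma.12G134200 at a[CO2] in ring 1 (10.7 CPM), Glyma.11G146500 at a[CO2] in ring 7 (0.664 CPM), Glyma.06G162600 at e[CO2] in ring 5 (78.5 CPM) and Glyma.20G065900 at e[CO2] in ring 5 (33.5 CPM). At R5–R6 in WT they were Glyma.13G284800 (3.72 CPM) and Glyma.15G180900 (94.9 CPM) at e[CO2] in ring 8, Glyma.05G233700 at e[CO2] in ring 3 (24.8 CPM), Glyma.13G059000 (43.2 CPM) and Glyma.10G243800 (2213 CPM) at e[CO2] in ring 5, and Glyma.04G170100 at a[CO2] in ring 7 (25.1 CPM). At V4–V5 in VPZ-34A they were Glyma.08G024500 at e[CO2] in ring 3 (1.12 CPM), Glyma.05G143000 at e[CO2] in ring 6 (9.97 CPM) and Glyma.16G044700 at a[CO2] in ring 1 (7.97 CPM). At V4–V5 in WT, where the genes were chosen, they were Glyma.13G245600 at e[CO2] in ring 5 (8.48 CPM), Glyma.13G030300 at a[CO2] in ring 4 (33.8 CPM), Glyma.08G038300 at a[CO2] in ring 7 (17.9 CPM) and Glyma.06G162600 at a[CO2] in ring 4 (149 CPM). Glyma.06G162600 and Glyma.20G065900 were low in the same VPZ-34A library of ring 5.

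Glyma.13G030300 was wholly above a[CO2] at R5–R6, with a log2 ratio of 0.54 in VPZ-34A and 0.95 in WT, and wholly below in WT at V4–V5, the libraries that chose it. The difference between the stages was not tested in WT. In VPZ-34A the interaction of stage and CO2 was 1.64 ± 0.72 (SE, edgeR adjusted p = 1).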

How the results depend on the processing

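The counts of genes called by edgeR for CO2, line and interactions were 0 with limma-voom, RLE, other filters and the 24-library model. The exceptions were DESeq2 (7 lower in VPZ-34A at V4–V5, 1 lower in VPZ-34A at R5–R6, 2 lower and 1 higher over both lines) and the model of 32 libraries (1 lower over both lines). The model of 32 libraries also held the libraries that chose the genes, so that its counts are not independent of the choice. Without 1 ring, the count over both lines was 0 to 4 lower and 0 to 1 higher. Lower genes at an unadjusted p under 0.05 numbered 8 in VPZ-34A (7.49% of all genes) and 14 in WT (3.03%) at R5–R6 in the model of 32 libraries, and 3 in VPZ-34A with a mean of 2 CPM or more (5.99%). Without 1 ring they numbered 3 to 15 in VPZ-34A and 4 to 16 in WT, beside 3.28% to 6.86% and 1.11% to 4.57% of all genes. Between the stages, 31 fell and 9 rose by 1 or more on the log2 scale, beside 17.1% and 10.7% of all genes, which passed an unlike filter. The ring as a replicate block gave 42 genes lower and 24 higher between the stages and changed no other call, and the random block left 0 over both lines. No paired analysis was possible because, for the CO2 effect within a line, the labels do not show which e[CO2] ring shared a field block with which a[CO2] ring.

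The choice itself depended on the scaling and on single libraries. With TMM, 62 of the 100 were chosen again, and without 1 ring 33 to 71 were. Taking 50 genes kept 50. With TMM, genes wholly below a[CO2] then made up 1% in VPZ-34A and 1% in WT at R5–R6, beside 3.65% and 1.23% of all genes. They made up 1% in VPZ-34A at R5–R6 (5 CPM or more), 0% there (50 genes) and 8% in VPZ-34A at V4–V5 (200 genes). Without 1 ring of the choice they made up 0% to 3% in VPZ-34A and 1% to 7% in WT at R5–R6. Of all genes of 2 CPM or more, 1.99% in VPZ-34A and 0.579% in WT at R5–R6 lay wholly below, and 0.78% in VPZ-34A at V4–V5. For the same 100 genes without 1 library, 13 to 28 lay wholly below in VPZ-34A at V4–V5, 2 to 10 in VPZ-34A and 4 to 9 in WT at R5–R6. Of all genes, 1.09% to 2.76%, 2.44% to 6.08% and 0.959% to 2.05% did. Leaving out a library can only raise such a count of the same genes. The log2FC of CO2 in VPZ-34A at V4–V5 reversed for Glyma.02G019400 with limma-voom (0.11). Without single rings it changed sign for Glyma.02G019400 (-0.35 to 0.23), Glyma.15G180900 (-0.12 to 0.19), Glyma.09G087700 (-0.29 to 0.43) and Glyma.18G276800 (-0.15 to 0.32). The cause was not tested.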

Other observations

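A further 3 of the 100 genes with a high level at V4–V5, named here after their values were seen, fell at the later stage. Glyma.05G128000 averaged 1149 ± 443 CPM at R5–R6 and 3821 ± 1556 CPM at V4–V5 in VPZ-34A (SD, n = 8 each, log2FC -2.04 ± 0.33 SE, edgeR adjusted p = 5.65e-05), and no library of R5–R6 reached the lowest one of V4–V5. Glyma.09G073900 averaged 10.6 ± 6.74 CPM at R5–R6 and 199.7 ± 65.5 CPM at V4–V5 (log2FC -4.52 ± 0.40), and Glyma.11G181100 averaged 35 ± 20.3 CPM at R5–R6 and 418 ± 135 CPM at V4–V5 (log2FC -3.84 ± 0.35). At V4–V5 their CO2 levels overlapped in VPZ-34A. None of the 3 has an entry in the annotation of the study.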
